A study of Homo sapiens with 33 samples.

Results

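A set of 10 genes of the bone morphogenetic protein (BMP) pathway was followed by their symbols in a table of 56470 gene symbols: the ligand genes BMP2, BMP4 and BMP7, the target genes ID1, ID2, ID3 and ID4, and the genes of the inhibitors SMAD6, BAMBI and NOG. All 10 were found. They were measured by bulk RNA sequencing of polyA RNA from SCC1, SCC6 and SCC25, established cell lines of head and neck squamous cell carcinoma (HNSCC). Each line received 100 nM cetuximab (CTX), an antibody that blocks the epidermal growth factor receptor (EGFR), or PBS as the untreated control, and RNA was collected daily from day 1 to day 5, with PBS also on day 0. A single library stood for each day of an arm, 33 in all. In SCC6 with cetuximab, however, 2 libraries carried the label day 2 (called 2a and 2b here) and no library the label day 1. Treatment began a day after seeding, and the medium with cetuximab or PBS was replaced each day. By the labels, SCC1 and SCC25 were grown with hydrocortisone and SCC6 without it, in both arms. Days stood in for replicates, and p-values measure only the spread between these libraries.

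BMP ligands are secreted dimers that bind pairs of type I and type II receptor kinases, which phosphorylate SMAD1, SMAD5 and SMAD9. These SMADs enter the nucleus with SMAD4 and switch on target genes, of which the ID genes are the best known. ID proteins lack a DNA-binding domain and hold basic helix-loop-helix partners, the E proteins, off the DNA, and in stratified epithelia they are known for their link to the balance between proliferation and differentiation. The pathway limits itself through its own targets: SMAD6 is an intracellular inhibitor, BAMBI is a membrane protein that resembles a type I receptor without a kinase, and noggin (NOG) binds the ligands outside the cell.

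The stretches in front of 4 of the genes are shown, picked after a search for SMAD sites in 9 windows of 7 members (all but BMP2, BMP7 and NOG). SMAD6 is shown for a palindrome of such sites, BAMBI for its GC-rich sites, and ID1 and ID3 as the ID genes with the highest levels. The windows of ID2 and ID4 and 2 of the 3 windows of BMP4 held GTCT too, and 1 of BMP4 held GGCGCC. Each sequence is the 250 bases before the RefSeq start of the gene on GRCh38.p14, read 5′ to 3′ on the gene's strand, with capitals at GTCT (or AGAC, the same letters on the other strand) and at GGCGCC.
SMAD6: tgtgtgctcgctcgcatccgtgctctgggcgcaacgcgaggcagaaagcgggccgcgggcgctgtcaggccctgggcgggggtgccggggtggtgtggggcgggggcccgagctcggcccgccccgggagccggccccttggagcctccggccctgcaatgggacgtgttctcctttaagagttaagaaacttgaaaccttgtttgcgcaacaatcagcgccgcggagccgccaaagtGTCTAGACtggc
BAMBI: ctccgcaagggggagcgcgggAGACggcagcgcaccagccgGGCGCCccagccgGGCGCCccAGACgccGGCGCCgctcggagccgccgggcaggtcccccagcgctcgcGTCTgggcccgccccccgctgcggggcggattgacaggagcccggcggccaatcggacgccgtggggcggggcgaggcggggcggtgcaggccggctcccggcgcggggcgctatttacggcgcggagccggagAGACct
ID1: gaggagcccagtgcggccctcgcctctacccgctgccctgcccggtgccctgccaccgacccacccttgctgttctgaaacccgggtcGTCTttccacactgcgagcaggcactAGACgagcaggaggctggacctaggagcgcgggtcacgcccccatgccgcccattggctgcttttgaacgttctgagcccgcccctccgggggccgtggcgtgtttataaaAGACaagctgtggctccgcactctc
ID3: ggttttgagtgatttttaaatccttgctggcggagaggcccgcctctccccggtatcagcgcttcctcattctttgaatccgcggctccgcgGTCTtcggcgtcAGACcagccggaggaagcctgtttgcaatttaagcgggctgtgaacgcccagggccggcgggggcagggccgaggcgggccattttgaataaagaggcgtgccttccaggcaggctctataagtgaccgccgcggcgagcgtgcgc
The window of SMAD6 (chr15:66701986-66702235, plus strand) held the palindrome GTCTAGAC 12 bases before the start, which is made up of 2 GTCT sites on opposite strands. Of 35116 promoters searched in the same way, 0.182% held this palindrome. The window of BAMBI (chr10:28677271-28677520, plus strand) held 3 GGCGCC and 4 GTCT sites on either strand, ID1 (chr20:31605039-31605288, plus strand) held 3 GTCT sites and ID3 (chr1:23559502-23559751, minus strand) 2. GGCGCC was found in 16.4% and GTCT in 77.5% of all promoters. The AP-1 site TGANTCA, the CRE TGACGTCA and the E-box CANNTG, sought on both strands as well, had 0 matches in these 4 windows and were found in 6.57%, 1.65% and 61.8% of all promoters. Of the windows not printed, those of ID2 and ID4 and 1 of BMP4 held 1 E-box each. The matches describe the letters only.

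Total counts per library ranged from 28508758 to 80727478, and the 2 deepest libraries, cetuximab-treated SCC6 of days 4 and 5, were alone on a flow cell. Levels are given in CPM, the count of a gene relative to the scaled total of its library, and 3 counts, the fewest taken as detected, corresponded to between 0.0401 and 0.116 CPM. In bulk RNA, fewer cells that express a gene and less RNA per cell cannot be told apart. The squamous epithelial markers fitted the label, with all 8 above 1 CPM on average in each line, though KRT5 and KRT14 were low in SCC6 with PBS, at 2.38 and 3.96 CPM. KRT17 was called higher in all 3 lines, at 2.47, 1.40 and 0.73 on the log2 scale, and KRT5 in SCC1 and SCC6, at 2.58 and 2.35. CDH1 was called higher in SCC1 (0.98) and SCC25 (0.44) and was at -0.47 in SCC6, not called. EPCAM was called lower in SCC1 (-0.73) and SCC6 (-0.93). Of the 8 epithelial markers, SCC1 had 7 called higher and 1 lower, SCC6 had 3 higher and 1 lower, and SCC25 had 2 higher and 0 lower. Over all genes tested, 22.5%, 15.5% and 8.72% were called higher and 22.0%, 14.5% and 9.47% lower. Of 6 markers of endothelial and blood cells, 5 averaged at most 1.52 CPM in any group. The sixth, CD68, was called lower in all 3 lines, from 34.9 to 7.77 CPM in SCC1, 17.2 to 4.72 in SCC6 and 199 to 161 in SCC25. Fibroblast markers moved with treatment. The summed level of 8 of them was 51.4 to 72.9 CPM with PBS and 96.4 to 221 with cetuximab in SCC1. SCC6 had 3.41 to 5.31 CPM with PBS and 10.0 to 116 with cetuximab. SCC25 had 175 to 226 and 289.9 to 458. Of those tested, 5 of 5, 2 of 3 and 5 of 8 were called higher, led by DCN (2.88) and COL1A2 (2.02) in SCC1, PDGFRB (5.60) and COL1A1 (3.72) in SCC6, and COL3A1 (1.62) and LUM (1.52) in SCC25. DCN in SCC1 and PDGFRB in SCC6 had at most 7.97 and 5 counts in a PBS library and passed the filter through the cetuximab libraries alone, so they had to differ and their fold changes are not exact sizes. PDGFRA had at most 8.07 counts in any library of SCC1 and 8 in SCC6. COL3A1 passed the filter in neither of these lines, with at most 1 and 3 counts with PBS and 5 and 1239 with cetuximab. In SCC6 its mean was 0.0314 CPM with PBS and 5.38 with cetuximab. The share of mitochondrial counts in SCC1 was 4.30% to 4.71% with PBS and 5.07% to 5.60% with cetuximab. It was also higher in SCC25, at 6.17% to 6.95% and 7.00% to 7.77%, and overlapped in SCC6, at 6.01% to 7.29% and 6.28% to 7.18%. Whether these shifts take part in the results on the BMP pathway was not tested.

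The ligand genes differed between the lines, both in level and in what changed under cetuximab. BMP2 rose 2.05-fold in SCC1 and BMP4 rose 3.14-fold in SCC6, while BMP7 passed the filter on low counts only in SCC25. On GRCh37, BMP2 lies at chr20:6748333-6760893 on the plus strand, BMP4 at chr14:54416454-54425479 and BMP7 at chr20:55743809-55841697 on the minus strand. BMP4 and BMP7 overlap long non-coding RNA genes on the opposite strand, and the strand setting of the counting is not given in the sources used here.

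In SCC1, BMP2 was at 3.59, 3.26, 3.15, 3.46 and 3.46 CPM on days 1 to 5 with PBS and at 6.52, 6.78, 6.33, 6.67 and 8.24 with cetuximab. Every cetuximab library was above every PBS library, and the level hardly moved over the PBS days. The log2 fold change was 1.04 ± 0.10 (SE; adjusted p = 6.09e-06, edgeR quasi-likelihood test over 17984 genes). In SCC6, BMP2 was at 13.8, 12.1, 8.96, 6.00 and 4.46 CPM with PBS and at 6.24, 7.82, 7.65, 7.39 and 6.99 in the cetuximab libraries 2a, 2b, 3, 4 and 5. The PBS libraries fell from day to day and crossed the cetuximab libraries, which stayed close together, so that the groups overlapped and the mean change of -0.35 ± 0.27 was not called (adjusted p = 0.352). In SCC25, where BMP2 was highest, it was at 11.2, 12.2, 14.4, 16.1 and 16.7 CPM with PBS and 12.8, 15.6, 13.5, 16.6 and 14.5 with cetuximab, with a log2 fold change of 0.042 ± 0.12 (adjusted p = 0.842).

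BMP4, a close relative of BMP2, was at 0.967, 0.867, 0.502, 0.505 and 0.403 CPM with PBS in SCC6 and at 1.77, 1.93, 1.74, 2.67 and 2.22 with cetuximab. The groups did not overlap, and the log2 fold change was 1.65 ± 0.26 (adjusted p = 0.000778), at 11 to 31 counts per PBS library. In SCC25 it was at 12.6, 11.3, 7.62, 6.40 and 4.51 CPM with PBS and 14.7, 12.5, 7.69, 8.63 and 6.59 with cetuximab, so each cetuximab library was above PBS of its day while the groups overlapped (log2 fold change 0.24 ± 0.30, adjusted p = 0.634). In SCC1, BMP4 had at most 2 counts in a PBS library and none in the cetuximab libraries, so no change was detectable at this depth. BMP7, a ligand of the other main BMP subgroup, had at most 3 counts in SCC1 and 8.02 in SCC6 in any library of days 1 to 5, which was too low to test. In SCC25 it was at 10.8, 12.9, 12.7, 15.7 and 18.1 CPM with PBS and 15.9, 17.7, 11.5, 14.2 and 13.5 with cetuximab, and the groups overlapped throughout (log2 fold change 0.049 ± 0.15, adjusted p = 0.850).

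**Figure D1:**
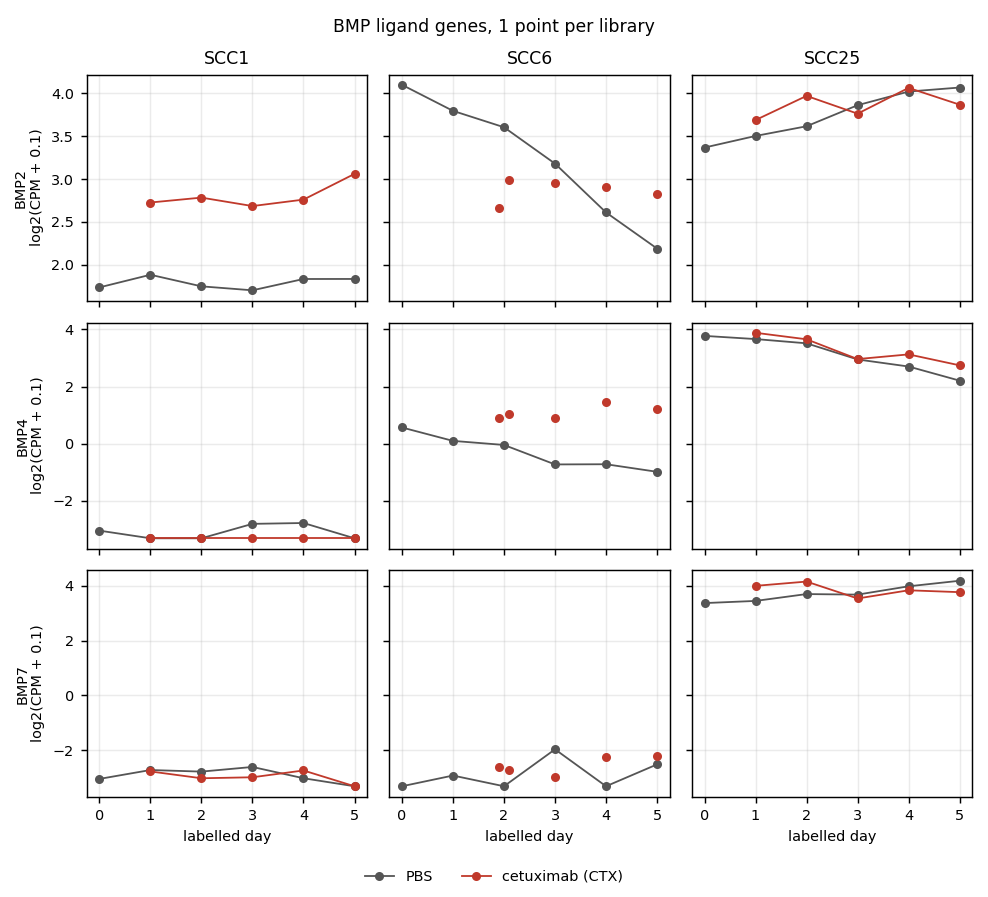
Levels of the 3 ligand genes as log2(CPM + 0.1) against the labelled day, 1 point per library, for PBS (grey) and cetuximab (red) in SCC1, SCC6 and SCC25; both SCC6 libraries labelled day 2 stand side by side without a connecting line. BMP2 is separated in SCC1 (6.33 to 8.24 CPM with cetuximab, 3.15 to 3.59 with PBS), BMP4 in SCC6, and BMP7 stands out in SCC25.

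All 4 ID genes rose with cetuximab in SCC1 or SCC6, though not all of them in both. ID1, ID2 and ID3 were called higher in SCC1, and ID3 and ID4 in SCC6, while ID4 was too low to be tested in SCC1. None was called in SCC25 in the unpaired fit, and with day as a block ID2 and ID4 were. The genes lie at chr20:30193086-30194318 (ID1, plus), chr2:8818975-8824591 (ID2, plus), chr1:23884417-23885992 (ID3, minus) and chr6:19837601-19842428 (ID4, plus) on GRCh37, and ID2 and ID4 overlap long non-coding RNA genes on the opposite strand.

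ID1 in SCC1 was at 25.9, 24.9, 31.0, 53.8 and 66.4 CPM with PBS and at 47.4, 86.3, 111, 136 and 201 with cetuximab on days 1 to 5. Each cetuximab library was above the PBS library of its day, but the groups overlapped, because PBS of days 4 and 5 was above cetuximab of day 1. The log2 fold change was 1.54 ± 0.44 (adjusted p = 0.0201), and without PBS of day 3 the adjusted p was 0.0530. In SCC6, ID1 was at 23.5, 15.3, 13.7, 27.6 and 55.8 CPM with PBS and at 10.6, 17.9, 15.9, 33.7 and 29.9 with cetuximab, with no order between the groups and a log2 fold change of -0.34 ± 0.40 (adjusted p = 0.552). In SCC25 it was at 23.0, 34.8, 59.5, 79.9 and 107 CPM with PBS and 29.7, 51.3, 33.6, 61.4 and 54.7 with cetuximab (log2 fold change -0.41 ± 0.40, adjusted p = 0.522). There the PBS libraries of days 3 to 5 were above the cetuximab libraries of the same days, and those of days 1 and 2 below. Cetuximab of days 3 to 5 was on another flow cell than the other SCC25 libraries. Day and flow cell thus cannot be told apart in this turn.

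ID2 in SCC1 was at 1.20, 0.876, 0.630, 0.832 and 1.23 CPM with PBS and at 1.88, 3.05, 3.29, 4.69 and 6.36 with cetuximab. The groups did not overlap, and the highest cetuximab level was that of day 5. The log2 fold change was 2.03 ± 0.31 (adjusted p = 0.000234). In SCC6, ID2 was at 1.25, 2.70, 2.74, 3.19 and 2.60 CPM with PBS and 2.02, 2.65, 2.65, 3.42 and 2.98 with cetuximab, overlapping, with a log2 fold change of 0.12 ± 0.24 (adjusted p = 0.729). In SCC25, ID2 was at 2.74, 3.32, 4.15, 6.04 and 6.24 CPM with PBS and 3.71, 5.00, 6.14, 7.90 and 8.92 with cetuximab, higher with cetuximab on 5 of 5 days by 0.38 to 0.58 on the log2 scale of the daily ratio. The log2 fold change was 0.49 ± 0.28, not called in the unpaired fit (adjusted p = 0.245) and called with day as a block (0.00256).

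ID3 in SCC1 was at 34.8, 35.3, 36.8, 43.1 and 56.7 CPM with PBS and 56.1, 92.4, 111, 131 and 184 with cetuximab. In SCC6 it was at 17.8, 13.5, 13.3, 15.4 and 16.1 CPM with PBS and 36.8, 50.9, 54.5, 81.2 and 74.7 with cetuximab. The SCC6 groups were well apart, while in SCC1 PBS of day 5 was just above cetuximab of day 1. The log2 fold changes were 1.48 ± 0.30 in SCC1 (adjusted p = 0.00302) and 1.95 ± 0.20 in SCC6 (adjusted p = 4.44e-05). SCC25 had 20.5, 31.8, 39.3, 52.9 and 70.9 CPM with PBS and 37.5, 52.8, 33.8, 65.7 and 67.7 with cetuximab. These groups overlapped over most of their range (log2 fold change 0.25 ± 0.32, adjusted p = 0.638).

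ID4 was at 1.47, 1.80, 2.97, 3.83 and 5.02 CPM with PBS in SCC6 and at 6.81, 13.9, 23.9, 27.1 and 28.8 with cetuximab. The lowest cetuximab library, 2a, was above the highest PBS library, and the log2 fold change of 2.72 ± 0.42 (adjusted p = 0.000722) was the largest of the ID genes in SCC6. In SCC25, ID4 was at 1.78, 2.31, 4.42, 5.94 and 9.69 CPM with PBS and at 2.52, 4.02, 6.11, 7.00 and 9.72 with cetuximab, and in both groups each library was above the one of the day before (log2 fold change 0.27 ± 0.47, adjusted p = 0.733, and 0.0479 with day as a block). In SCC1 it did not pass the filter on low counts, with 2 to 5 counts per PBS library and 6 to 25 per cetuximab library. These ranges did not overlap, and in a fit without the filter its log2 fold change was 2.14 (adjusted p = 0.000391), a value that depends on few counts.

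**Figure D2:**
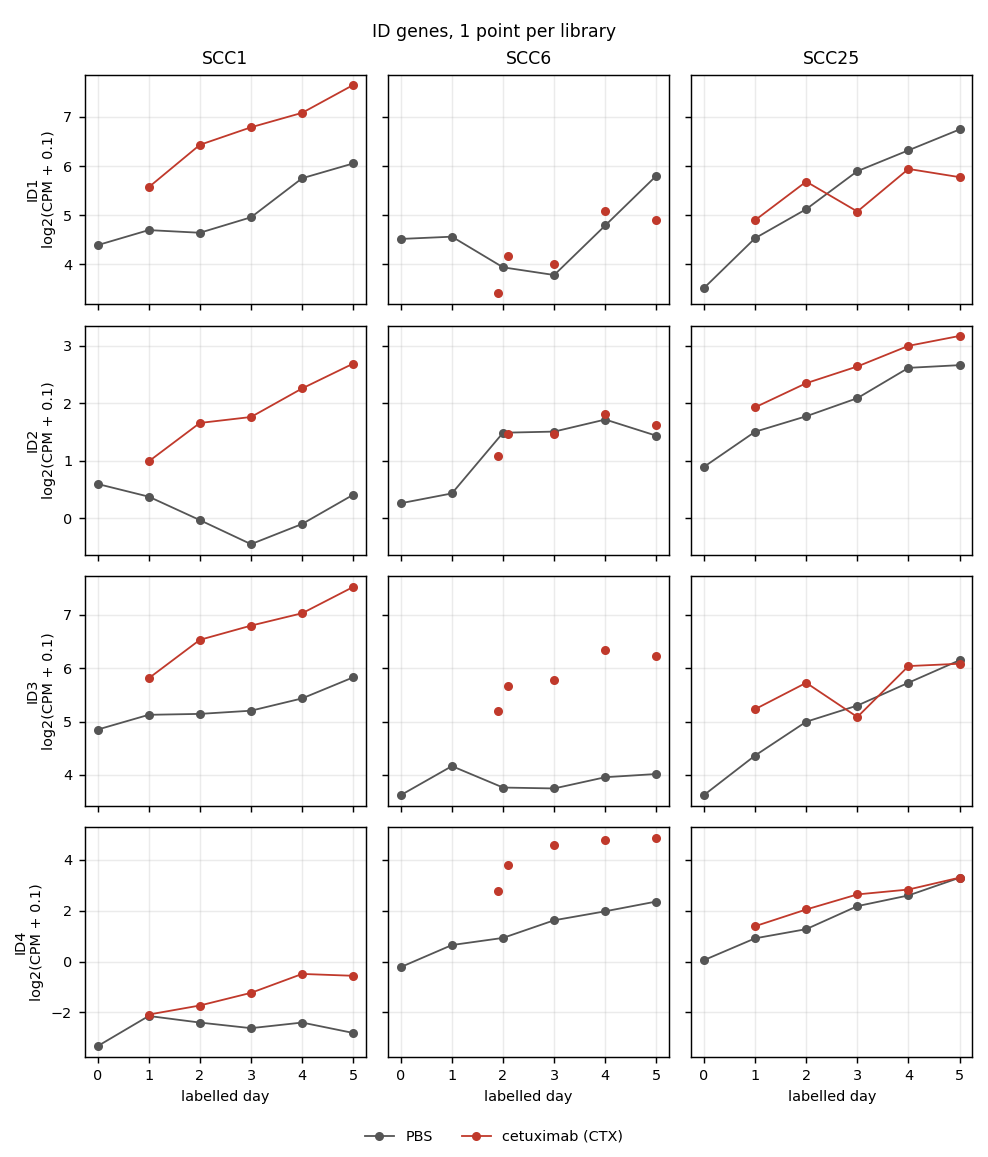
Levels of the 4 ID genes as log2(CPM + 0.1) against the labelled day, 1 point per library, for PBS (grey) and cetuximab (red) in each line. In SCC6 the cetuximab points of ID3 (36.8 to 81.2 CPM) and ID4 (6.81 to 28.8 CPM) lie above all PBS points, while in SCC25 the groups overlap for each of the genes.

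Among the inhibitors, SMAD6 rose in SCC6 and SCC1 and BAMBI in SCC6, while NOG was not called in any line. SMAD6 lies at chr15:66994574-67075187 and BAMBI at chr10:28966439-28971861, both on the plus strand, and NOG, a gene of 1 exon, at chr17:54671060-54672972 on the plus strand of GRCh37. A long non-coding RNA gene overlaps SMAD6 on the same strand.

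SMAD6 in SCC6 was at 0.998, 0.797, 0.772, 1.01 and 1.83 CPM with PBS and 3.22, 3.59, 5.12, 12.0 and 10.1 with cetuximab. All cetuximab libraries were above all PBS libraries, with the libraries of days 4 and 5 the highest. The log2 fold change was 2.65 ± 0.41 (adjusted p = 0.000727). In SCC1, SMAD6 was at 0.127, 0.0449, 0.0420, 0 and 0.108 CPM with PBS, at most 5 counts in a library, and at 0.409, 0.898, 1.03, 2.21 and 3.28 with cetuximab, where each library was higher than the one of the day before. Its fitted log2 fold change of 4.58 ± 0.73 (adjusted p = 0.000418) rests on PBS levels near the limit of detection, and since SMAD6 passed the filter through the cetuximab libraries alone it had to differ, so its call adds nothing to the count of members. In SCC25 the levels were 1.93, 2.96, 2.99, 3.56 and 5.78 CPM with PBS and 4.52, 5.23, 4.74, 4.44 and 6.27 with cetuximab, higher on each of the 5 days, with a log2 fold change of 0.54 ± 0.24 that was not called (adjusted p = 0.133, and 0.0224 with day as a block).

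BAMBI was at 5.33, 6.41, 5.33, 8.08 and 8.40 CPM with PBS in SCC6 and at 16.8, 23.8, 31.7, 44.4 and 48.1 with cetuximab. The separation was complete, and the log2 fold change was 2.28 ± 0.28 (adjusted p = 0.000149). Of the members in SCC6, ID3 alone had a smaller adjusted p. In SCC25 it was at 6.28, 7.18, 9.83, 11.2 and 11.2 CPM with PBS and 6.33, 6.66, 6.95, 8.29 and 7.84 with cetuximab. The cetuximab libraries were below PBS of their day on 4 of 5 days, and the log2 fold change of -0.35 ± 0.16 was not called in the unpaired fit (adjusted p = 0.156, and 0.0450 with day as a block). In SCC1, BAMBI had at most 5 counts per library and was not tested.

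NOG was found mainly in SCC6, at 9.30, 7.97, 6.74, 5.45 and 2.87 CPM with PBS and 3.11, 4.11, 4.83, 5.09 and 3.50 with cetuximab. The groups overlapped because PBS of day 5 was the lowest of all, and the log2 fold change of -0.66 ± 0.27 was not called (adjusted p = 0.0863). Without PBS of day 5 it was -0.85 (adjusted p = 0.00973), and with DESeq2 -0.68 (adjusted p = 0.0495). In SCC1 and SCC25 no library of days 1 to 5 was above 0.525 and 0.715 CPM. NOG did not pass the filter in SCC1, at 8 to 25 counts with PBS and 5 to 9 with cetuximab, and without the filter its log2 fold change was -1.05 (adjusted p = 0.0367). In SCC25 it was -0.39 ± 0.47 (adjusted p = 0.610).

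**Figure D3:**
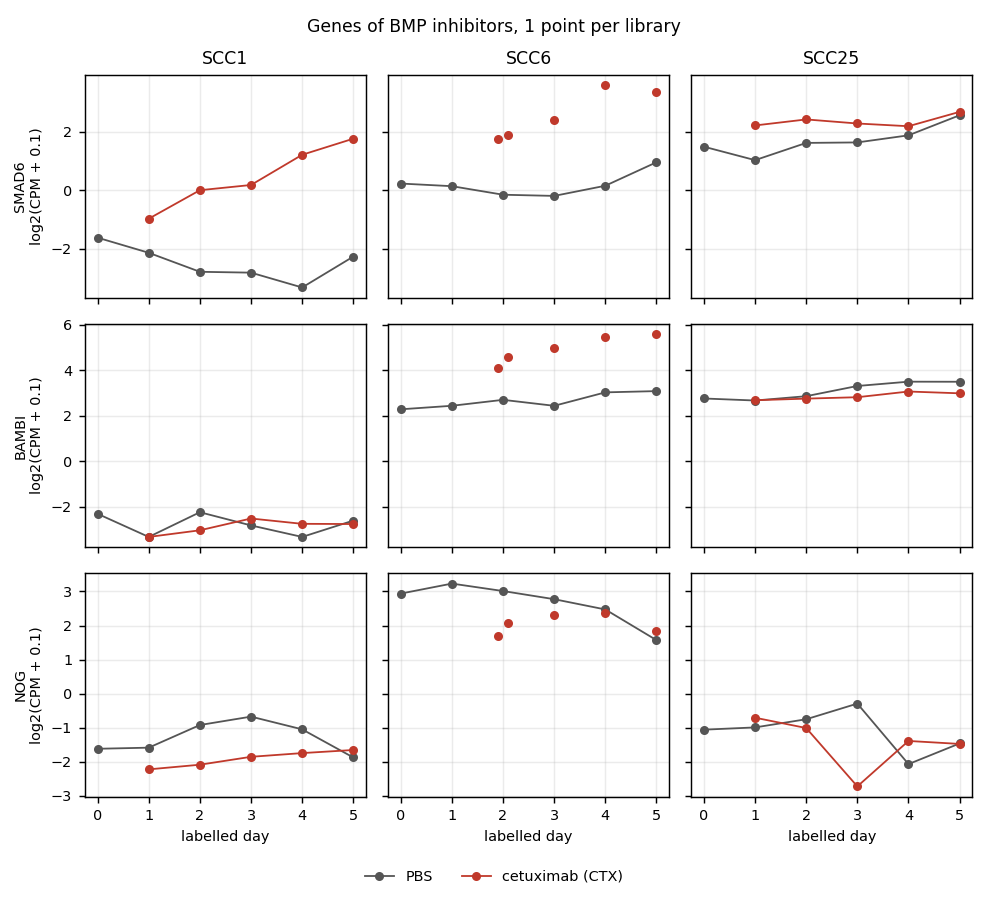
Levels of SMAD6, BAMBI and NOG as log2(CPM + 0.1) against the labelled day, 1 point per library, for PBS (grey) and cetuximab (red) in each line. In SCC6 the cetuximab points of SMAD6 (3.22 to 12.0 CPM) and BAMBI (16.8 to 48.1 CPM) are above all PBS points, and in SCC1 the cetuximab points of SMAD6 climb over the days while PBS stays near 0.

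Counted over the members, the change with cetuximab was upward in SCC1 and SCC6. In SCC1, 5 of 10 members passed the filter and 5 of these 5 were called higher and 0 lower, against 44.5% of all genes tested (22.5% higher and 22.0% lower). SMAD6 apart, it was 4 of 4. In SCC6, 9 passed and 5 were called higher and 0 lower, against 30.1% of all genes (15.5% higher and 14.5% lower). The median log2 fold change of the members that passed was 1.54 and 1.65, with 0.021 and 0.0039 for all genes tested, and since low members are missing from it this median is not that of all 10. The groups did not overlap for 4 of 10 members in SCC1 (BMP2, ID2, ID4 and SMAD6) and for 5 in SCC6 (BMP4, ID3, ID4, SMAD6 and BAMBI), in each case with cetuximab above PBS. Of the members tested these were 3 of 5 and 5 of 9, since ID4 was not tested in SCC1, and SMAD6 in SCC1 had to differ to pass the filter. Over all genes tested, the groups did not overlap for 31.3% in SCC1 (15.3% with cetuximab above PBS) and for 19.1% in SCC6 (10.8%). Flow cell and treatment were entangled: in SCC1 the cetuximab libraries shared a flow cell with PBS of day 5 alone. With the flow cell as a covariate, the SCC1 contrast rests on that PBS library and only BMP2 stayed called, at 1.01 (adjusted p = 0.00330), when 23.2% of all genes were. ID1 then was at 0.82, ID2 at 1.66 and ID3 at 1.03, with adjusted p of 0.477, 0.0663 and 0.210. In SCC6 the 5 called members stayed called under the same covariate, with log2 fold changes from 1.65 (BMP4) to 2.11 (ID4). There the contrast rests on cetuximab 2a, 2b and 3 and PBS of days 2 to 5, which shared a flow cell. Cetuximab of days 4 and 5 and PBS of day 1 had no library of the other SCC6 arm on theirs.

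In SCC25, 10 of 10 members were tested and 0 were called, with 1 (SMAD6) at an unadjusted p under 0.05 and 0 by DESeq2, against 18.2% of all genes (8.72% higher and 9.47% lower), and no member had groups that did not overlap, against 14.7% of all genes. Libraries of the same day deviated together, with correlations over genes of 0.218 to 0.582 between PBS and cetuximab of a day. Unlike days ranged more widely, from -0.615 (cetuximab of day 1 with PBS of day 4) to 0.636 (cetuximab of day 1 with PBS of day 2). With day as a block, a paired fit, 4 of 10 were called, against 26.8% of all genes (12.7% higher and 14.1% lower). ID2 was higher at 0.49 (adjusted p = 0.00256), ID4 at 0.37 (0.0479) and SMAD6 at 0.61 (0.0224), and BAMBI was lower at -0.32 (0.0450). With the flow cell as a covariate and no block, which sets cetuximab of days 1 and 2 against PBS of all days, ID2 was at -0.044 and ID4 at -0.56, and none was called.

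**Figure D4:**
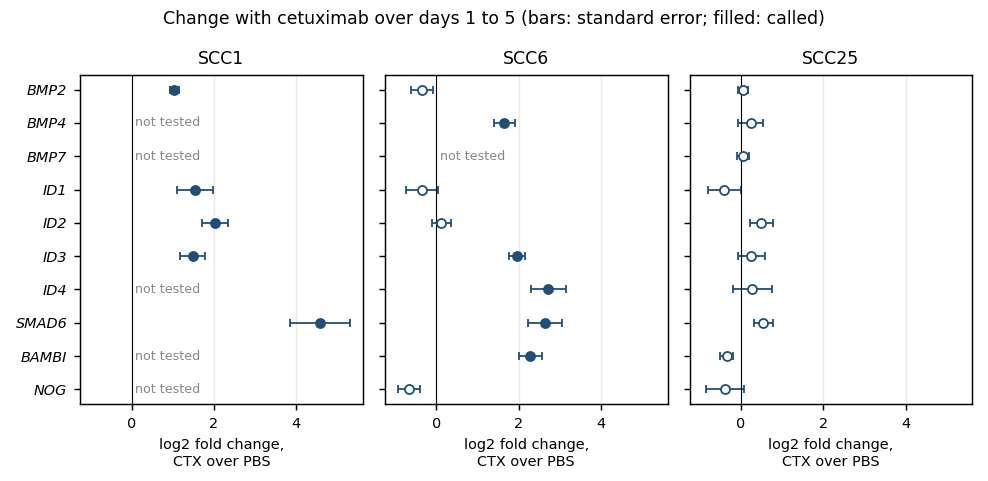
Log2 fold change of cetuximab over PBS on days 1 to 5 for each member (points) with its standard error (bars), in SCC1, SCC6 and SCC25; filled points were called at an adjusted p under 0.05 by edgeR, 5 libraries a group, and members that did not pass the filter are marked. Filled points are all to the right of 0, 5 in SCC1 and 5 in SCC6, and SCC25 has none.

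The change with cetuximab differed between the lines for 8 of 10 members in 1 fit over 30 libraries, against 26.0% of 21414 genes, the exceptions being BMP7 and NOG. SCC6 alone was grown without hydrocortisone, so line and medium cannot be told apart where SCC6 is compared. The log2 fold change of ID1 in SCC1 exceeded that in the other lines, with SCC6 lower, at a difference of -1.85 ± 0.61 (adjusted p = 0.0331) and SCC25 too, at a difference of -1.92 ± 0.61 (0.0465). The same held for ID2, at a difference of -1.87 ± 0.42 (0.00188) and a difference of -1.52 ± 0.41 (0.0168), and for BMP2, at a difference of -1.36 ± 0.26 (0.000370) and a difference of -0.98 ± 0.26 (0.0143). These 3 genes were the ones that set SCC1 apart from both other lines. The rise of ID3 did not differ detectably between SCC6 and SCC1, with a difference of 0.50 ± 0.41 (adjusted p = 0.447). SCC6 exceeded SCC25 for BAMBI by 2.64 ± 0.34 (adjusted p = 2.78e-06), for ID4 by 2.46 ± 0.61 (0.00546), for SMAD6 by 2.12 ± 0.59 (0.0124), for ID3 by 1.71 ± 0.41 (0.00446) and for BMP4 by 1.43 ± 0.42 (0.0176). BAMBI had the smallest adjusted p of these. With the flow cell as a covariate, BAMBI and ID4 remained called, 2 of 10, against 14.2% of all genes. ID1 was also lost without the filter on low counts (adjusted p = 0.0849) and without any one of 4 SCC1 libraries: PBS of days 1, 2 and 3 and cetuximab of day 5 (adjusted p of 0.0538 to 0.0728).

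Each line had its own flow cells for most PBS libraries, so that line and flow cell cannot be told apart here. SCC6 alone was grown without hydrocortisone, so its differences from the other lines cannot be told apart from the medium either. The untreated levels of the members also differed between the lines, and in PBS of days 1 to 5 the mean of each of the 3 ligand genes was highest in SCC25. Against SCC25, 7 of 10 members were called in SCC1, all lower, where 68.3% of all genes were called (33.3% higher and 35.0% lower), and 8 in SCC6, 1 higher and 7 lower, against 72.0% (34.8% and 37.2%). Between SCC1 and SCC6 also 8 were called, 1 higher and 7 lower in SCC1, against 68.9% (34.5% and 34.4%). These shares are near those of all genes, so the number of members that differed is not a result about the members. BMP2 stood in the order SCC25, SCC6, SCC1, at 14.1 ± 2.39, 9.05 ± 3.93 and 3.39 ± 0.176 CPM (SD, n = 5), with adjusted p of 0.0189 and 4.42e-05 for the neighbours, though SCC6 and SCC25 were not called apart without PBS of day 4 in SCC6 (0.0556) or with day 0 added (0.161). BMP4 had the same order, at 8.49 ± 3.38, 0.649 ± 0.251 and 0.0174 ± 0.0239 CPM, and so did SMAD6, at 3.44 ± 1.43, 1.08 ± 0.434 and 0.0644 ± 0.0521.

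The other members had orders of their own. BAMBI was at 9.14 ± 2.30 CPM in SCC25 and 6.71 ± 1.47 in SCC6, not called apart by edgeR (adjusted p = 0.0898, DESeq2 0.0441), and at 0.0438 ± 0.0474 in SCC1. NOG had another order, with 6.46 ± 2.47 CPM in SCC6 against 0.402 ± 0.221 in SCC25 and 0.348 ± 0.144 in SCC1, the latter 2 not apart (adjusted p = 0.703). ID3 did not differ detectably between SCC25 and SCC1, at 43.1 ± 19.5 and 41.3 ± 9.23 CPM (adjusted p = 0.827), and both were above SCC6 at 15.2 ± 1.89 (adjusted p of 9.98e-05 and 0.000164). ID1 had a wide spread, at 60.9 ± 34.0, 40.4 ± 18.7 and 27.2 ± 17.0 CPM in SCC25, SCC1 and SCC6, and only the outer 2 were called apart (adjusted p = 0.0360), a call that 7 of 15 fits without 1 library lost, with an adjusted p of up to 0.109. With day as a block, SCC1 was also called apart from SCC25 (-0.55, adjusted p = 0.0321) and SCC6 (0.59, 0.0243). ID2 and ID4 were lowest in SCC1, ID4 at 0.0826 ± 0.0318 CPM against 3.02 ± 1.46 in SCC6 and 4.83 ± 3.19 in SCC25. Between SCC6 and SCC25, ID4 was called with the block (-0.58, adjusted p = 0.0353, without it 0.154) and without PBS of day 1 in SCC25 (0.0461).

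Set side by side per kilobase of transcript, ID1 and ID3 had higher mean levels than the other members in each line with PBS. In SCC1 with PBS, ID3 was at 43.5 ± 9.72 CPM per kilobase and ID1 at 41.1 ± 19.0, against 0.955 ± 0.0497 for BMP2 and 0.733 ± 0.196 for ID2. In SCC6 with PBS, ID1 was at 27.7 ± 17.3 and ID3 at 16.0 ± 1.99 on this scale, followed by BAMBI at 3.97 ± 0.867 and NOG at 3.38 ± 1.29. With cetuximab, ID3 reached 62.8 ± 19.1, BAMBI 19.5 ± 7.85 and ID4 5.20 ± 2.43 in SCC6, while ID1 was at 22.0 ± 9.96. The leading ID gene in SCC6 was thus ID1 by the mean without drug, within a wide spread, and ID3 with it. In SCC25 the ligands were close to each other, with 4.40 ± 1.75 for BMP4, 3.98 ± 0.674 for BMP2 and 3.50 ± 0.712 for BMP7 with PBS.

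Levels also moved over the days without any drug, and SCC25 had the most members with a called slope. From day 0 to day 5 with PBS, ID1 in SCC25 was at 11.4, 23.0, 34.8, 59.5, 79.9 and 107 CPM. The rise was unbroken, with a slope of 0.63 ± 0.036 log2 units per day (adjusted p = 3.56e-06). Slopes were called for 9 of 10 members in SCC25, 8 higher and 1 lower, against 11.0% of all genes (7.22% higher and 3.82% lower). ID3 and ID4 rose by 0.48 ± 0.028 and 0.65 ± 0.040 log2 units per day, ID2 by 0.36 ± 0.040, SMAD6 by 0.24 ± 0.053, BAMBI by 0.19 ± 0.032, BMP7 by 0.17 ± 0.026 and BMP2 by 0.15 ± 0.024. BMP4 alone went down, with a slope of -0.32 ± 0.034 (adjusted p = 2.41e-05), so that 2 ligands rose while the third fell. NOG had no called slope. The call of SMAD6 was lost without PBS of day 5 (adjusted p = 0.228).

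In SCC6, 6 of 9 tested members had a called slope with PBS, 3 higher and 3 lower, against 32.5% of all genes (13.8% and 18.6%). BMP2 was at 17.0, 13.8, 12.1, 8.96, 6.00 and 4.46 CPM from day 0 to day 5, a fall at every step, with a slope of -0.40 ± 0.040 log2 units per day (adjusted p = 0.000389). BMP4 and NOG fell too, with slopes of -0.37 ± 0.078 and -0.27 ± 0.070. ID4 rose by 0.50 ± 0.059, ID2 by 0.28 ± 0.084 and BAMBI by 0.15 ± 0.047 log2 units per day. PBS of days 0 and 1 was on another flow cell than days 2 to 5, and without day 0 the count was 3, as it was without day 1. ID2, BAMBI, BMP4 and NOG each lost the call without at least 1 library, with adjusted p of up to 0.228, 0.154, 0.0852 and 0.125, and ID4 and BMP2 did not. In SCC1, ID1 and ID3 had called slopes, 2 of 5 tested members and both higher, against 2.68% of all genes (1.83% higher and 0.856% lower). PBS of day 5 in SCC1, the highest PBS library for both genes, was on another flow cell than days 0 to 4. ID1 was at 20.9, 25.9, 24.9, 31.0, 53.8 and 66.4 CPM from day 0 to day 5 (slope 0.34 ± 0.044, adjusted p = 0.0155), and ID3 had a slope of 0.17 ± 0.027 (adjusted p = 0.0273). Both calls were lost without PBS of day 0, of day 1 or of day 4, with adjusted p of up to 0.0735 for ID1 and 0.126 for ID3.

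Whether the change with cetuximab differed between days 1 to 3 and days 4 and 5 was tested in each line. In SCC6, cetuximab of days 4 and 5 was alone on its flow cell, so period and flow cell cannot be told apart there. In SCC25, cetuximab of days 3 to 5 was on another flow cell than the other libraries. In SCC1, PBS of day 5 shared the flow cell of cetuximab, and PBS of days 1 to 4 did not. By edgeR 0 members were called in SCC1, SCC6 or SCC25, and 0.0% of all genes were in each of the lines (1394, 5596 and 588 genes at an unadjusted p under 0.05, and 31, 2838 and 3 called by DESeq2). At an unadjusted p under 0.05 there were 1 (ID4), 4 (ID3, BMP2, BMP4 and NOG) and 1 (BMP7) members, and DESeq2 called 1 member, BMP2 in SCC6. BMP2 in SCC6 came closest to the threshold, with a shift of 1.17 ± 0.31 on the log2 scale (adjusted p = 0.0958, edgeR). Its log2 ratio of cetuximab over PBS of the labelled day was -0.94 and -0.62 in 2a and 2b, -0.23 on day 3, 0.30 on day 4 and 0.64 on day 5. The sign turned between days 3 and 4, while the cetuximab libraries stayed between 6.24 and 7.82 CPM. A linear day-by-treatment term, chosen after seeing the data, called 4 members in SCC6, against 28.2% of all genes. They were BMP2 at 0.43 log2 units per day, BMP4 at 0.47, NOG at 0.42 and ID3 at 0.32, the 3 genes whose PBS level fell among them.

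The other genes of the BMP pathway were called in both directions, unlike the genes of ERK output, which growth factor signalling keeps on. Of the latter, 10 of 12 in SCC1, 11 of 12 in SCC6 and 10 of 12 in SCC25 were called lower and 0 higher. Over all genes tested, 22.0%, 14.5% and 9.47% were called lower. The medians of the ERK output genes were -2.02, -1.76 and -1.07 on the log2 scale. EGR1 was at -3.64, -4.35 and -2.44, PHLDA1 at -3.66 in SCC1, DUSP5 at -2.72 in SCC6 and DUSP4 at -1.62 in SCC25, and these 4 together with DUSP6, ETV4, FOSL1, SPRY2 and SPRY4 were lower in each line. In SCC25 the unpaired fit called 10 of 12 genes of ERK output and 0 members of the BMP group, against 18.2% of all genes. With day as a block, 3 members were called higher and 1 lower, against 12.7% and 14.1% of all genes. Whether these responses are linked was not tested.

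Of 9 tested receptors and co-receptors, SCC1 had 2 called higher and 2 lower, SCC6 had 3 and 1, and SCC25 had 1 and 0. Of all genes, 44.5%, 30.1% and 18.2% were called in either direction. The type II receptor gene BMPR2 was the one called higher in all 3 lines, at 0.46 ± 0.054, 1.48 ± 0.12 and 0.32 ± 0.071 (adjusted p = 1.95e-05, 1.26e-05 and 0.00825). ENG, which encodes the co-receptor endoglin, fell by 1.33 and RGMB by 1.03 in SCC1, and RGMA fell by 0.90 in SCC6. Of the transducers SMAD1, SMAD5, SMAD9 and SMAD4, SMAD9 was called in SCC6 at 0.92, with 0 of 4 called in SCC1 and SCC25. Of the other 11 ligand genes, 1, 2 and 3 passed the filter, and BMP6 was called lower in SCC6 at -1.87 and in SCC25 at -1.26. The median log2 fold changes of receptors were 0.077, 0.10 and 0.042, beside 0.021, 0.0039 and 0.0062 for all genes.

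Secreted antagonists other than NOG were called in both directions, 2 higher and 2 lower of 7 in SCC1, 1 and 1 of 8 in SCC6, and 1 and 1 of 8 in SCC25. Here too the shares of all genes called were 44.5%, 30.1% and 18.2%. GREM1, which encodes the BMP antagonist gremlin, was at -2.36 in SCC1 and 0.41 in SCC25, FSTL3 at 1.70 in SCC1, FST, the follistatin gene, at -1.92 in SCC6 and -0.67 in SCC25, and FSTL1 at 1.60 in SCC6. Among 6 intracellular regulators, 3 were higher and 3 lower in SCC1, 2 and 1 in SCC6, and 0 were called in SCC25. SMAD7, the other inhibitory SMAD, rose by 0.74 in SCC1 and 0.86 in SCC6, while the ubiquitin ligase gene SMURF2 was at -1.94 in SCC1 and the co-repressor gene SKIL at 0.81 in SCC6. The median log2 fold change in SCC1, then SCC6 and then SCC25 was -0.16, 0.18 and 0.14 for the antagonists and -0.032, 0.10 and -0.11 for the regulators.

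Other known BMP targets split as well, 3 higher and 2 lower of 5 in SCC1, 1 and 1 of 4 in SCC6, and 1 and 1 of 6 in SCC25. Beside them stand 44.5%, 30.1% and 18.2% of all genes called. The transcription factor gene ATOH8 was at 3.54 ± 0.41 in SCC1 and 1.62 ± 0.35 in SCC25, the first from at most 7 counts per PBS library, so that it passed the filter through the cetuximab libraries alone and had to differ. DLX5 was at 1.75 in SCC1, and DLX3, a factor of epidermal differentiation, at 1.71 in SCC1 and 2.40 in SCC6. The homeobox gene MSX1 was lower, at -1.60 in SCC1 and -0.60 in SCC6. HEY1, also a Notch target, was at -0.65 in SCC1 and -0.67 in SCC25. Medians of this list were 1.71, 0.22 and 0.23. Among the E proteins, the partners of ID proteins, TCF4 was called higher in SCC1 at 0.43 and in SCC6 at 0.58, TCF3 lower in SCC1 at -0.27, and 0 of 3 in SCC25.

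**Figure D5:**
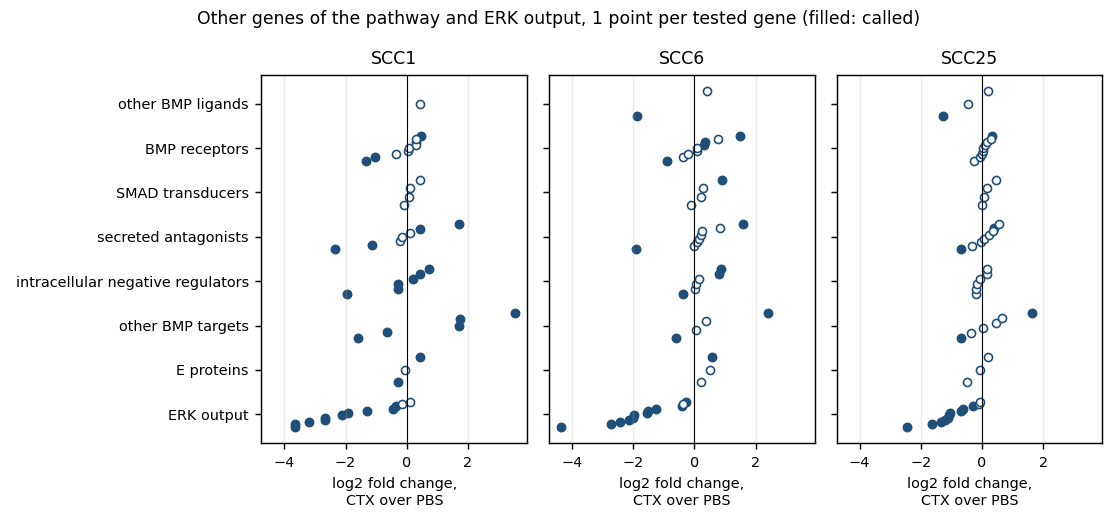
Log2 fold change of cetuximab over PBS on days 1 to 5 for each tested gene (points) of 8 lists in SCC1, SCC6 and SCC25; filled points were called at an adjusted p under 0.05 by edgeR. Most points of ERK output lie to the left of 0 in each line, with medians of -2.02, -1.76 and -1.07, and the BMP lists hold filled points on both sides.

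The genes whose levels moved most like a member were sought over the 33 libraries after the mean of each line was removed, among 9905 or 9906 genes whose mean log2 CPM was 3 or more. These libraries share lines, days and treatments, so the correlations are a description. For ID1 they were NOTCH3 (Pearson r = 0.89), VSIR (0.84) and IFI35 (0.82), for ID2 KRT13 (0.92), PRRG4 (0.90) and SYT15 (0.90), and for ID3 PTPRJ (0.92), TAP1 (0.92) and GABARAPL1 (0.91). BMP2 had EPHB3 (0.88), DSG3 (0.87) and LYPD3 (0.85), and SMAD6 had IGFL2-AS1 (0.95), OLFML2A (0.95) and FOSL2 (0.94). Between the 5 members that passed the filter in all lines, r was highest for ID3 with SMAD6 (0.84) and ID2 with SMAD6 (0.78) and lowest for BMP2 with ID3 (0.30).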

How the data were processed

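Bulk RNA-seq of 33 libraries was used. Poly(A)-enriched RNA was prepared with a stranded kit, and the authors deposited 1 table of estimated counts per gene symbol, quantified with Salmon version 0.8.2, with hg19 and GRCh37 as builds in the submitters' processing notes. The strand setting is not given in the sources used here. Of the deposited estimated counts, 63.2% were whole numbers, and all were rounded before testing. Of 56470 symbols, 11814 were 0 in all libraries. Columns were matched to the sample titles, which also carry the flow cell name. The 10 members and the lists of other genes were chosen with earlier results of these data known.

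Counts were tested with the quasi-likelihood F test of edgeR 4.0.16 in R 4.3.3 (TMM normalization, robust dispersion, filterByExpr with a minimum count of 10), and a gene was called when its p, adjusted over all genes tested by the method of Benjamini and Hochberg, was under 0.05. Treatment was compared within each line on days 1 to 5, with day 0 used in the PBS slopes alone. All 30 libraries of days 1 to 5 entered the comparison of lines. Standard errors are those of the log2 fold change implied by the F statistic. CPM used TMM factors over all libraries, and daily ratios a pseudocount of 0.1 CPM. Alternatives were DESeq2 1.42.0, its size factors, no filter, day 0 added or left out, the flow cell as a covariate, a GC trend removed (spline with 5 degrees of freedom, GC values for 34694 symbols matched by name and 1306 by an older name), and each library left out. Scripts were tested on simulated data.

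The labels give PBS and cetuximab libraries the same days, so day was also fitted as a replicate block. Deviations from the group means of same-day libraries correlated at 0.218 to 0.582 in SCC25, 0.104 to 0.383 in SCC1 and -0.177 to 0.579 in SCC6, where both libraries labelled day 2 and PBS of days 1 and 2 formed 1 block. Libraries of unlike days reached 0.636 in SCC25, 0.346 in SCC1 and 0.701 in SCC6.

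All members were named. Of each other list, the genes called in the same direction in all 3 lines and the 2 with the largest change among those called in each line were named. Gene positions are from the GENCODE annotation of GRCh37, and promoters are from RefSeq on GRCh38.p14. Figures were drawn with matplotlib 3.10.9.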

Additional observations from a re-analysis of the deposited data

Results flagged for a closer look

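In 49 groups of 5 libraries tested, 2 had 1 library far from the other 4, and chance alone marks about 1 group in 20. BMP2 was at 8.24 CPM in cetuximab-treated SCC1 of day 5, with the other 4 libraries between 6.33 and 6.78. SMAD6 was at 1.83 CPM in SCC6 with PBS of day 5, with the other 4 between 0.772 and 1.01.

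The change with cetuximab differed between the 3 lines in a test of the interaction (edgeR, over 21414 genes) for 8 members. The adjusted p was 3.49e-06 for BAMBI, 0.000608 for SMAD6, 0.000728 for BMP2, 0.00267 for ID2, 0.00667 for ID3, 0.00934 for ID4, 0.0108 for BMP4 and 0.0261 for ID1. With the flow cell as a covariate, BAMBI (0.000137) and ID4 (0.0305) remained called, and the adjusted p was 0.120 for SMAD6, 0.0989 for BMP2, 0.0710 for ID2, 0.110 for ID3, 0.308 for BMP4 and 0.474 for ID1.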

How the results depend on the processing

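Over the alternatives other than leaving out a library, 486 of the members' values kept their direction and side of the threshold, 20 became called, 24 lost the call and 12 changed sign. Over the fits that left out 1 library these numbers were 1138, 7, 30 and 19. Flow cell and treatment were partly confounded, days stood in for replicates, and low members were limited by depth. For treatment, ID4, BMP4, BMP7, BAMBI and NOG in SCC1 and BMP7 in SCC6 did not pass the filter. SMAD6 in SCC1 was tested from PBS levels near the limit of detection. The causes of the changes given here were not tested.

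For treatment, the number of members called in SCC1 went from 5 to 1 with the flow cell as a covariate and to 1 within 1 flow cell (an alternative chosen after seeing the data, as were the linear day terms and the fit of SCC6 without both libraries labelled day 2). In SCC25 it went from 0 to 4 with the replicate block, when 26.8% of all genes were called. It was 1 with the GC trend removed (SMAD6), beside 5671 of 15968 genes. With both it was 4 (ID2, BMP4, SMAD6 and BAMBI), beside 7396 of 15968 genes. Over the fits without 1 library it was 0 to 1, the 1 being SMAD6 without PBS of day 5 (0.83, adjusted p = 0.00764). The replicate block changed no call of treatment in SCC1 or SCC6. The number that differed between lines went from 8 to 2 with the flow cell as a covariate. The number of PBS slopes called in SCC1 went from 2 to 0 without day 0 and was 0 to 2 over the fits without 1 library, and in SCC6 it went from 6 to 3 without day 0 and was 3 to 6. The number whose change differed between periods in SCC6 went from 0 to 1 with DESeq2, 3 without the filter and 4 with a linear day term, and was 0 to 1 without 1 library (PBS of day 1 or day 3), and in SCC25 it was 0 to 1 (cetuximab of day 3).

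Among all genes, the number called for treatment in SCC1 was 8005, with 4171 under the flow cell covariate and 3581 within 1 flow cell. In SCC25 it was 3474 of 19101, with 1442 and 2078 in these fits and 5111 with the replicate block. With the GC trend removed it was 5671 of 15968, and 7396 with the block as well. For the difference between lines it was 5563 and 3046 with the flow cell. For PBS slopes in SCC1 it was 511, with 1485 by DESeq2 and 890 without the filter. For the difference between periods it was 0 by edgeR, with 31, 2838 and 3 by DESeq2 in SCC1, SCC6 and SCC25, 24 and 3366 without the filter in SCC1 and SCC6, and 104 and 4900 with the linear term in SCC1 and SCC6.

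Signs that changed were those of values that were not called. ID2 in SCC6 was at -0.22 with the flow cell and -0.20 within it, and in SCC25 ID2 was at -0.044 and -0.046, ID4 at -0.56 and -0.56, and NOG at 0.18 and 0.18. With day 0 added, ID3 was 0.046 in SCC1 against SCC25. Without day 0, the PBS slope was -0.0087 for BMP2 and -0.096 for NOG in SCC1 and -0.027 for ID3 in SCC6. Over the fits without 1 library, the change with cetuximab ranged over -0.56 to 0.088 for ID1 and -0.050 to 0.23 for ID2 in SCC6, and -0.020 to 0.13 for BMP2 and -0.022 to 0.17 for BMP7 in SCC25. The PBS difference ranged over -0.24 to 0.19 for ID3 and -0.41 to 0.088 for NOG in SCC1 against SCC25, and -0.74 to 0.52 for BMP7 in SCC1 against SCC6. The PBS slope ranged over -0.0087 to 0.018 for BMP2 and -0.10 to 0.25 for NOG in SCC1, and -0.015 to 0.32 for ID1, -0.027 to 0.069 for ID3 and -0.063 to 0.21 for SMAD6 in SCC6.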
